A study of Mus musculus with 16 samples.

Results

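Chemokines are small secreted proteins that guide migrating cells, and their receptors are G protein-coupled membrane proteins. The set examined here is every entry of the deposited count table whose symbol is Ccl, Cxcl, Ccr or Cxcr followed directly by a digit, which gave 54 of 24982 entries: 24 CC ligands, 13 CXC ligands, 11 CC receptors and 6 CXC receptors. At least 1 count was recorded for 45 of the 54, and 24 of them were abundant enough to be tested. No tested member was called different between groups in any of 7 comparisons with edgeR, and the 1 member whose call depended on the filter for low counts, Ccl22, is described among the CC ligands.

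The libraries came from dorsal root ganglia, the clusters of sensory neuron cell bodies beside the spinal cord, of C57BL/6 mice aged 10 to 12 weeks. All groups had received an injection into the ankle joint 14 days earlier, and ganglia L4 to L6 of the injected side were taken. The 4 groups of 4 libraries were wild-type mice given vehicle (WT Saline), wild-type mice given complete Freund's adjuvant, an oil suspension that provokes lasting joint inflammation (WT MoAr), and mice of a knock-in line labelled TrkAC given vehicle (TrkA-C Saline) or adjuvant (TrkA-C MoAr). Each library pooled 6 ganglia from 2 mice of the same group, so the spread between libraries is a spread between pairs of mice. The labels used here do not describe the knock-in allele, nor whether it is homozygous. One library, WT MoAr 1, carries a knock-in genotype label against its title. Ntrk3, which encodes the TrkC receptor, checked the genotypes: it stood at 29.3 to 61.4 CPM (TMM-scaled counts per library size, the unit of all levels below) in the WT libraries and at 99.1 to 138 CPM in the TrkA-C libraries, with WT MoAr 1 at 48.4 CPM, among the other WT libraries.

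CC and CXC chemokines are named for the spacing of their first cysteines. Inflammatory members such as Ccl2, Ccl5 and Cxcl10 are made when NF-kB or interferon signalling is active and draw in monocytes, T cells and neutrophils, whereas homeostatic members such as Cxcl12 and Ccl19 are made at a steady level and place cells within tissues. Ligation of the receptor releases Gi proteins, which act on phospholipase C, PI3 kinase and Rac. In sensory ganglia, chemokines come from neurons, satellite glia, Schwann cells, fibroblasts, endothelium and resident macrophages, and several of their receptors have been described on sensory neurons. In bulk tissue such as this, fewer cells of a type and less RNA per cell cannot be told apart.

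The regions just upstream of the start sites of 5 members are given because they belong to the most abundant ligand and receptor and to 3 ligands known for their response to interferon or to inflammation. They are the 250 bases before the RefSeq start on build GRCm38.p6, written 5′ to 3′ on the strand of the gene, and the capitals mark matches on either strand to the interferon-stimulated response element core, to the NF-kB consensus or to TATAAA.
Cxcl12, chr6:117168285-117168534, plus strand: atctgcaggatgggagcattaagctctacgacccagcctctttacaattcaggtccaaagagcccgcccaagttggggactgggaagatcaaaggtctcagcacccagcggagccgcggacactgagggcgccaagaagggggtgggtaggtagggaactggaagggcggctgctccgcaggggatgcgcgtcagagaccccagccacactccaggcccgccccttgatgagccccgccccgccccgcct
Cxcr4, chr1:128592300-128592549, minus strand: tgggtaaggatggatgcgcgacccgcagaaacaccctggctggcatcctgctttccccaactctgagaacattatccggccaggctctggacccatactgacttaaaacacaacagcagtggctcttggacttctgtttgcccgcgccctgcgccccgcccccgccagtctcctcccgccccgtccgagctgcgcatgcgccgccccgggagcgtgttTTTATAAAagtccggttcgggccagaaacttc
Cxcl10, chr5:92348890-92349139, minus strand: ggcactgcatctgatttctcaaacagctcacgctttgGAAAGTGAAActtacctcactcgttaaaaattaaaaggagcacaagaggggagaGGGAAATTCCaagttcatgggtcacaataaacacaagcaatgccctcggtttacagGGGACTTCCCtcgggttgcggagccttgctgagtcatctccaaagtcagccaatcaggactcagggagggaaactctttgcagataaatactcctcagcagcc
Cxcl9, chr5:92328080-92328329, minus strand: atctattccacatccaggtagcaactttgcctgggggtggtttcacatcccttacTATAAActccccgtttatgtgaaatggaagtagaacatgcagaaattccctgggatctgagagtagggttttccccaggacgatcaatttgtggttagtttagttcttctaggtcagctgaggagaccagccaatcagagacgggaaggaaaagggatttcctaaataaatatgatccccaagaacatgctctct
Ccl12, chr11:82101595-82101844, plus strand: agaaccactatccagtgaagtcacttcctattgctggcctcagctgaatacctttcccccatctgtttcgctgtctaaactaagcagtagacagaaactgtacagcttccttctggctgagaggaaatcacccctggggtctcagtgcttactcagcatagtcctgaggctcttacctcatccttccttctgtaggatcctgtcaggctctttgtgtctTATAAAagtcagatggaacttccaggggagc

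The Cxcl10 region held 1 interferon-stimulated response element core match, starting 213 bases before the start site, and 2 NF-kB consensus matches, starting 159 and 103 bases before it. The Ccl12 region held TATAAA starting 31 bases before the start site, and the Cxcl9 region held it 195 bases before. In the Cxcr4 region a TATAAA on each strand overlapped, starting 32 and 30 bases before the start site. The Cxcl12 region held none of the 3 motifs and had 14 CpG dinucleotides, against 19 for Cxcr4, 5 for Cxcl10, 3 for Cxcl9 and 1 for Ccl12. Among all 32851 RefSeq windows of that length, 2.98% held the interferon-stimulated response element core, 3.9% the NF-kB consensus and 12.4% TATAAA. Windows were found for 38 of the 54 members. Among the 16 of these that were tested, the interferon-stimulated response element core occurred for 3 genes (Cxcl10, Ccl19 and Cxcl14), the NF-kB consensus for 2 and TATAAA for 5, and among the 22 that were not tested for 0, 6 and 6 genes.

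Library totals ran from 22742209 to 40910947 counts. The correlation of log2(count + 1) between libraries of a group, over all entries with those at 0 included, was at least 0.988. The 54 members held 46672 counts in all, 0.00929% of all counts, and a summed level of 73.5 to 130 CPM per library. Cxcl12 and Cxcr4 made up 49.7% to 65.8% of the member counts of each library. Per library, 28 to 37 members had a count, and 22 members had one in every library. A level of 3 counts, taken as the limit that a count of 0 allows, corresponds to 0.0733 to 0.132 CPM in single libraries and to 0.00597 CPM over all libraries. These intervals and limits cover counting error only. Of the members by class, 12 CC ligands, 6 CXC ligands, 4 CC receptors and 2 CXC receptors were tested.

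**Figure D1:**
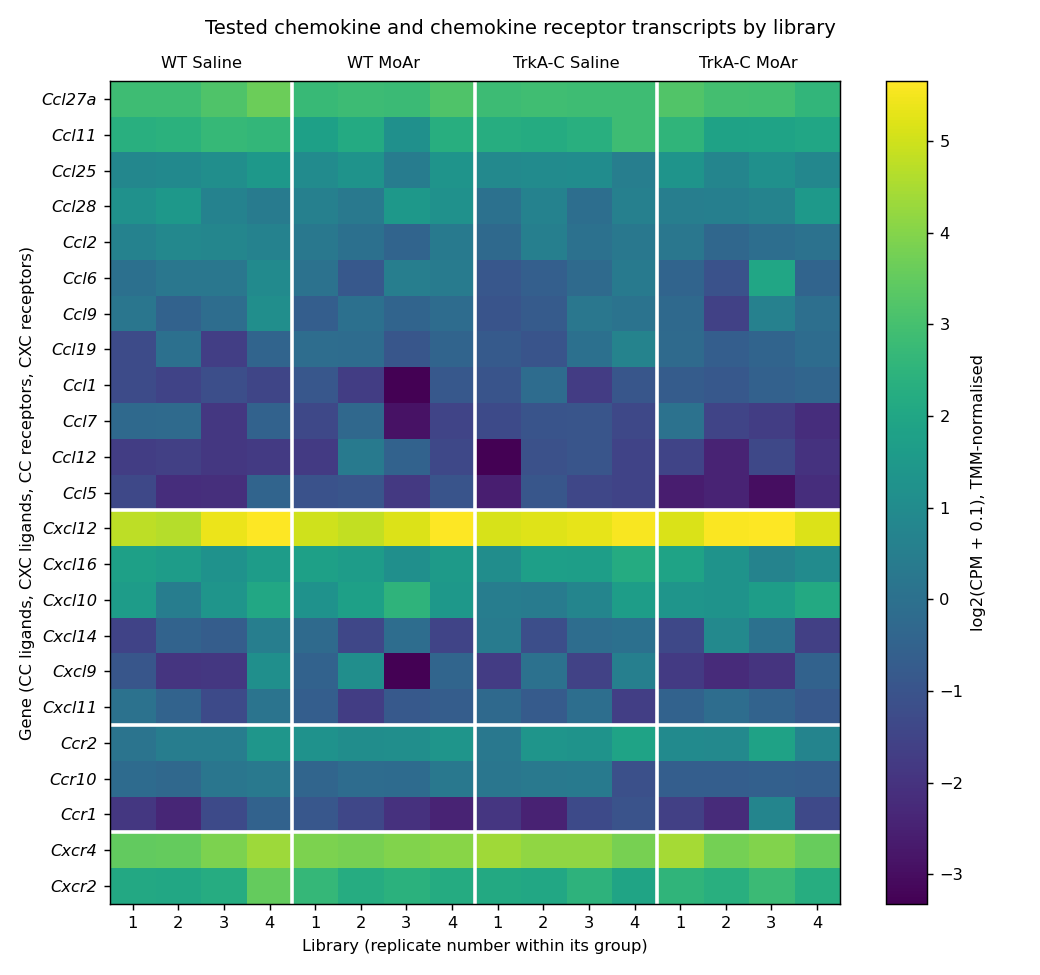
Level of the tested chemokines and receptors that are reported here (rows) in each of the 16 libraries (columns, by group), as log2(CPM + 0.1) in colour. Cxcl12 and Cxcr4 are the highest rows in every column.

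Across the 24 tested members, edgeR called 0 in each of the 7 comparisons at an adjusted p under 0.05, where adjustment ran over all 15507 tested genes. For MoAr against Saline, 0% of all tested genes were called in WT, 0% in TrkA-C and 0.0258% for the mean of both genotypes. For TrkA-C against WT, 4.34% of tested genes were called with Saline, 2.84% with MoAr and 8.96% for the mean of both injections, and the interaction of genotype and MoAr called 0%. Without adjustment, an edgeR p under 0.05 was reached by 3 members for MoAr in WT (6.96% of all tested genes), by 3 in TrkA-C (5.68%) and by 3 for the mean (6.57%). It was reached by 2 members for genotype with Saline (23.8%), by 2 with MoAr (12.7%), by 1 for the mean (24.4%) and by 1 for the interaction (6.29%). DESeq2 gave an unadjusted p for 44 members and called 0 in each of the 7 comparisons. Its own filter left low-count genes without an adjusted p in some comparisons, among them Ccl22 for genotype with MoAr. Such members could not be called there. Over all genes with an adjusted p, DESeq2 called 10.5% for genotype with Saline, 4.35% with MoAr and 11.9% for the mean of both injections. In the other comparisons it called 0 to 58 genes. Limma-voom, run with sample quality weights, called 0 of the 24 tested members in 6 comparisons. It called 1, Ccl5, for genotype with MoAr, where it called 636 of all tested genes (4.1%).

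Over the 24 tested members, the median log2 difference, MoAr minus Saline, was -0.05 in WT (all tested genes -0.01) and 0.02 in TrkA-C (all tested genes 0.00), with 9 of 24 positive in WT and 12 of 24 in TrkA-C. For TrkA-C minus WT the median was -0.20 with Saline, 0.04 with MoAr and -0.14 for the mean, each beside 0.00 for all tested genes. These comparisons share their groups, so the values are not independent of each other. The precision differed by member: for MoAr against Saline in WT the 95% confidence interval reached 0.35 log2 units to each side for Ccl27a and 1.87 for Cxcl9, with a median of 0.83. These limits hold for single genes without adjustment. At this depth and number of libraries, a difference beyond its own limit could still go uncalled, as for Ccl2, Ccl11 and Ccl12 in WT.

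**Figure D2:**
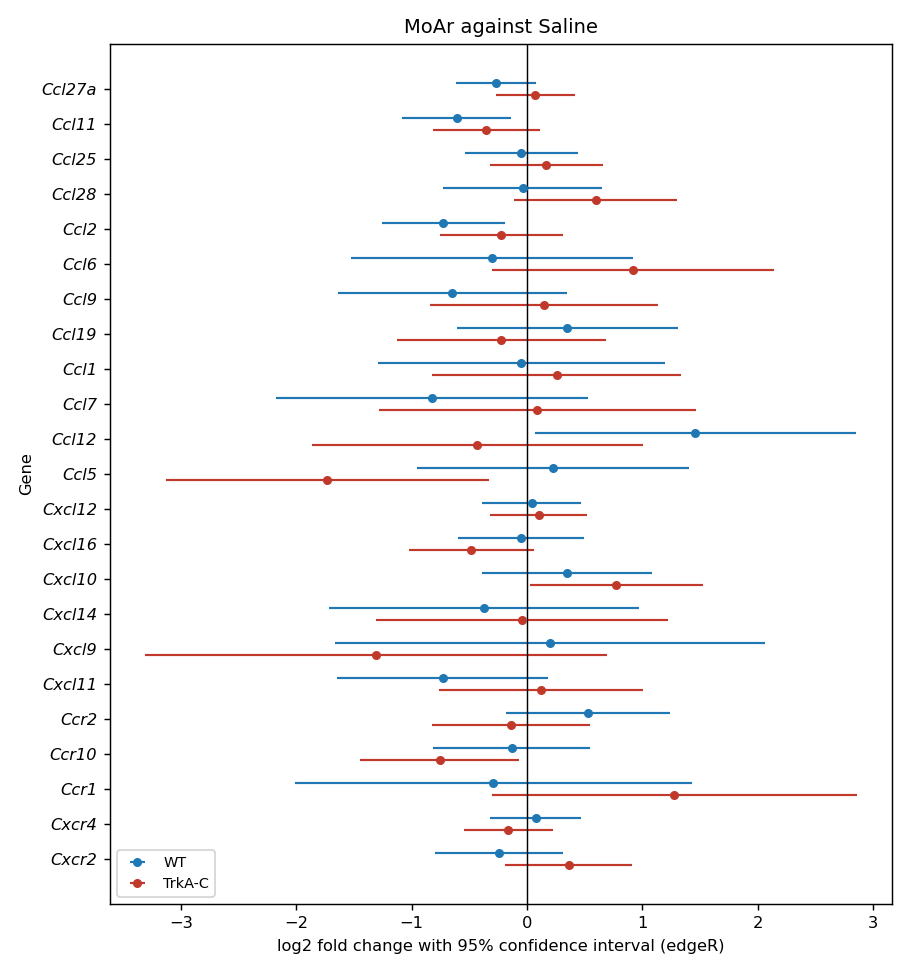
Log2 difference MoAr minus Saline for the tested members that are reported here (rows), in WT and in TrkA-C, with 95% confidence intervals from the edgeR fit of 16 libraries. The interval lies on 1 side of 0 for Ccl2, Ccl11 and Ccl12 in WT and for Ccl5, Ccr10 and Cxcl10 in TrkA-C, and no member passed adjustment.

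Cxcl12, a homeostatic CXC ligand of fibroblasts and endothelium, was the most abundant member by counts. It stood at 26.7, 25.0, 41.3 and 50.1 CPM in WT Saline, and at 31.6, 28.5, 36.5 and 50.2 CPM in WT MoAr. The TrkA-C Saline libraries had 34.2, 36.8, 39.4 and 47.7 CPM, and the TrkA-C MoAr libraries 35.3, 48.7, 49.3 and 36.1 CPM. All groups overlapped, and the mean with MoAr differed from that with Saline by a log2 difference of 0.04 ± 0.20 (SE) in WT, with a 95% interval of -0.39 to 0.47, and by 0.10 ± 0.20 in TrkA-C, with an interval of -0.32 to 0.53. On a linear scale those intervals run from 0.765 to 1.39 times and from 0.800 to 1.44 times. TrkA-C minus WT was 0.15 ± 0.20 with Saline and 0.21 ± 0.20 with MoAr. Within both WT groups, the libraries titled 1 and 2 had 25.0 to 31.6 CPM and those titled 3 and 4 had 36.5 to 50.2 CPM, a split seen after the values were examined and given as a description. The source names number these libraries 1 to 5 and 6 to 9, and with that split as a covariate edgeR again called 0 members in each of the 7 comparisons.

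Cxcr4, the signalling receptor of Cxcl12, stood at 11.1, 11.4, 14.7 and 20.1 CPM in WT Saline and at 14.5, 13.9, 15.2 and 16.6 CPM in WT MoAr. It had 20.4, 17.8, 17.6 and 14.0 CPM in TrkA-C Saline and 21.9, 13.5, 15.5 and 11.8 CPM in TrkA-C MoAr. The groups overlapped in each comparison. The log2 difference MoAr minus Saline was 0.07 ± 0.19 in WT (95% interval -0.32 to 0.47) and -0.16 ± 0.18 in TrkA-C (95% interval -0.55 to 0.23). Per kilobase of exon, the mean over 16 libraries was 8.64 CPM for Cxcr4 and 4.72 CPM for Cxcl12, followed by 4.35 for Ccl11, 3.25 for Ccl27a, 1.74 for Cxcr2 and 1.22 for Cxcl10. On this scale Cxcr4 began at 6.16 CPM per kilobase in its lowest library and Cxcl12 ended at 6.13 in its highest. Cxcl12 (3.06 to 6.13), Ccl11 (2.01 to 6.63) and Ccl27a (2.46 to 5.16) overlapped. The length used merges the exons of all annotated transcripts, 8176 bases for Cxcl12 and 1808 for Cxcr4. The order of these 2 genes therefore depends on that choice of length. Ackr3, the scavenging receptor of Cxcl12, which is outside the symbol rule, had group means of 4.72 to 6.01 CPM.

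**Figure D3:**
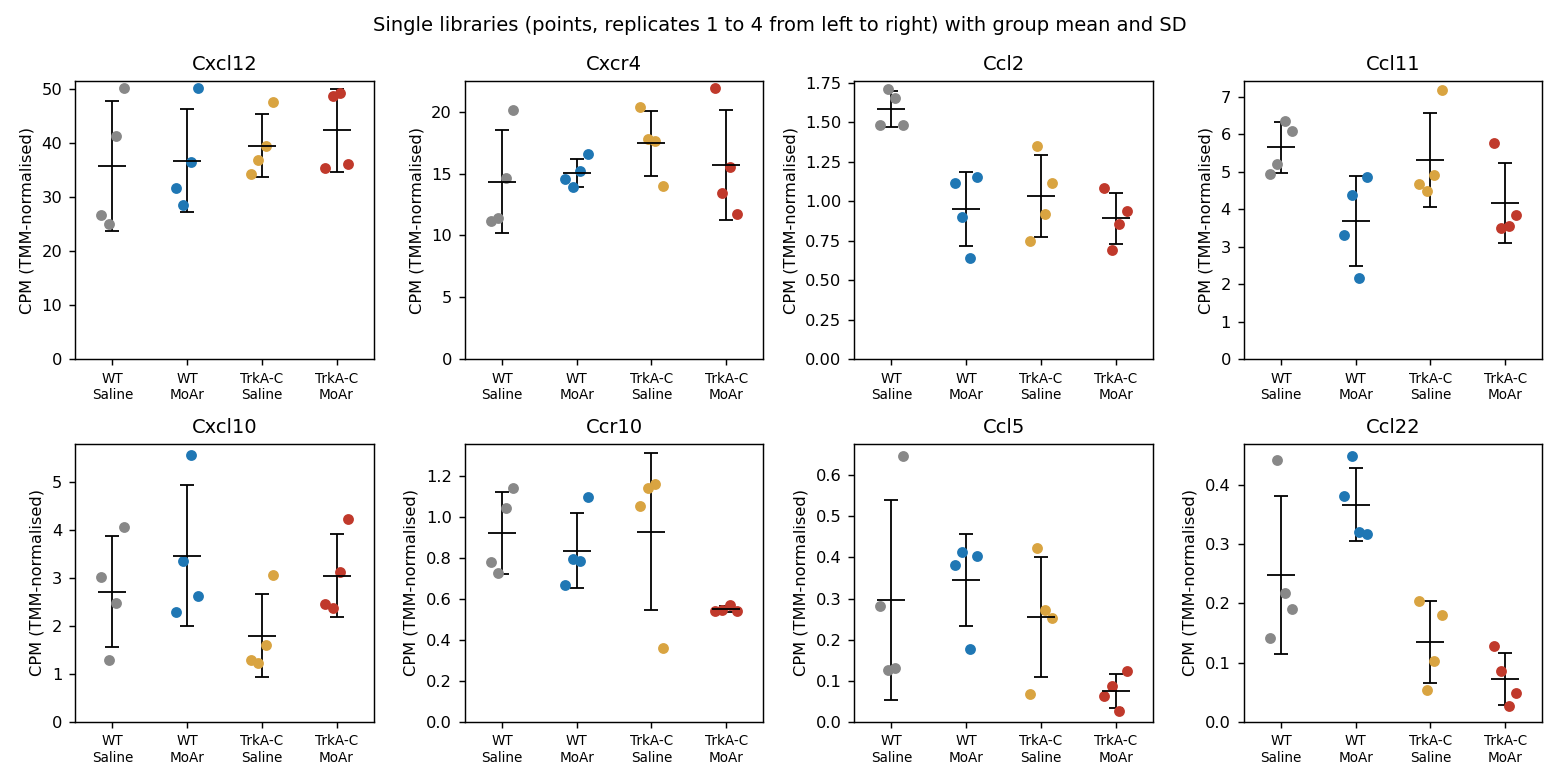
CPM of 8 members in each library (points), by group, with the mean (line) and SD (bar, n = 4, drawn no lower than 0). Ccl2 is higher in every WT Saline library (1.48 to 1.71 CPM) than in the other groups, Ccl5 and Ccl22 are lower in every TrkA-C MoAr library than in every WT MoAr library, and the groups overlap for Cxcl12 and Cxcr4.

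Ccl2, Ccl7, Ccl11, Ccl12, Ccl8 and Ccl1 lie side by side on chromosome 11, between 82035577 and 82179812. Ccl2, Ccl7 and Ccl12 are monocyte attractants that act on Ccr2, and Ccl11, or eotaxin, acts on Ccr3 and is made by fibroblasts. Ccl2 stood at 1.48, 1.71, 1.65 and 1.48 CPM in WT Saline and at 1.11, 0.897, 0.641 and 1.15 CPM in WT MoAr. It had 0.747, 1.35, 0.921 and 1.12 CPM in TrkA-C Saline and 1.08, 0.690, 0.858 and 0.934 CPM in TrkA-C MoAr. Every WT Saline library was above every library of the other 3 groups. In WT the log2 difference MoAr minus Saline was -0.73 ± 0.25 (95% interval -1.26 to -0.19), with an edgeR unadjusted p of 0.0102 and an adjusted p of 0.703. TrkA-C minus WT with Saline was -0.61 ± 0.25 (95% interval -1.13 to -0.08), with an unadjusted p of 0.0271 and an adjusted p of 0.156 in edgeR. Both comparisons use the same 4 WT Saline libraries, and in TrkA-C the difference between injections was -0.22 ± 0.26. The interaction was 0.50 ± 0.36 (edgeR adjusted p = 0.721). For the mean of both injections TrkA-C minus WT was -0.35 ± 0.18 (edgeR adjusted p = 0.236).

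Ccl11 stood at 4.95, 5.22, 6.35 and 6.08 CPM in WT Saline and at 3.31, 4.38, 2.17 and 4.87 CPM in WT MoAr. In TrkA-C it had 4.69, 4.48, 4.91 and 7.17 CPM with Saline and 5.76, 3.51, 3.56 and 3.84 CPM with MoAr. The WT groups did not overlap and the TrkA-C groups did. The log2 difference MoAr minus Saline was -0.61 ± 0.22 in WT (edgeR unadjusted p 0.0142, adjusted p 0.703), -0.35 ± 0.22 in TrkA-C and -0.48 ± 0.16 for the mean (edgeR adjusted p = 0.501). Ccl2 and Ccl11 were the 2 tested members whose groups did not overlap for MoAr in WT, where 3.02% of all tested genes did not overlap. The count of such tested members was 0 in TrkA-C (4.32% of all tested genes) and 0 for the mean of both genotypes (0.0645%). Ccl2 was the 1 tested member that did not overlap between genotypes with Saline (14.6% of all tested genes). For the mean of both injections the count was 0 (2.3%). Ccl3, which was not tested, is described with the untested members. The summed level of 6 fibroblast and meningeal markers was 465 to 503 CPM in WT Saline, 270 to 471 CPM in WT MoAr, 439 to 670 CPM in TrkA-C Saline and 339 to 611 CPM in TrkA-C MoAr. Its lowest value was in WT MoAr 3, the library lowest for Ccl2 and Ccl11, and its part in these values was not tested. The summed level of 11 macrophage markers was 53.2 to 90.3 CPM in WT Saline, 46.6 to 71.6 CPM in WT MoAr, 48.6 to 69.5 CPM in TrkA-C Saline and 38.5 to 63.0 CPM in TrkA-C MoAr.

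Ccl12 stood at 0.174 to 0.221 CPM in WT Saline and at 0.191, 1.17, 0.606 and 0.288 CPM in WT MoAr. The groups overlapped, with WT MoAr 2 the highest of all libraries. The log2 difference MoAr minus Saline was 1.46 ± 0.66 in WT (edgeR unadjusted p 0.041, adjusted p 0.703) and -0.43 ± 0.68 in TrkA-C, where the libraries ran from 0 to 0.409 CPM with Saline and from 0.0863 to 0.286 CPM with MoAr. TrkA-C minus WT with MoAr was -1.51 ± 0.64 (edgeR adjusted p = 0.312), and the interaction was -1.89 ± 0.96 (edgeR adjusted p = 0.718). Without WT MoAr 2 these were 0.82 for MoAr in WT, -0.87 for genotype with MoAr and -1.26 for the interaction. Ccl7 had group means of 0.327 to 0.571 CPM, and Ccl1, a T cell product and ligand of Ccr8, had 0.278 to 0.558 CPM. For Ccl1, TrkA-C minus WT was 0.96 ± 0.54 with MoAr (edgeR adjusted p = 0.518) and 0.81 ± 0.39 for the mean of both injections (edgeR adjusted p = 0.209). Ccl8, with 55 counts in all, was not tested, and Ccr8 had 0 counts.

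Ccl5, Ccl9, Ccl6, Ccl3 and Ccl4 form the other cluster on chromosome 11, between 83525778 and 83664683. Ccl5, or RANTES, is made by T cells, NK cells and macrophages and acts on receptors that include Ccr1 and Ccr3. In CPM it stood at 0.283, 0.126, 0.131 and 0.646 in WT Saline and at 0.382, 0.414, 0.178 and 0.404 in WT MoAr. The TrkA-C Saline libraries had 0.0679, 0.424, 0.273 and 0.252 CPM. The TrkA-C MoAr libraries had 0.0636, 0.0863, 0.026 and 0.123 CPM, from 2, 3, 1 and 5 counts, against 12, 12, 5 and 14 counts in WT MoAr. With MoAr, every TrkA-C library was below every WT library, while the genotypes overlapped with Saline. TrkA-C minus WT with MoAr was -2.14 ± 0.65 (95% interval -3.50 to -0.78), with an unadjusted p of 0.00392 and an adjusted p of 0.0962 in edgeR. Limma-voom with sample quality weights gave -2.36 with an adjusted p of 0.0359, and edgeR without WT Saline 4 gave -2.14 with an adjusted p of 0.0492. The call thus depended on the tool, with its weights, and on that library. No TrkA-C MoAr library was high enough to help Ccl5 pass the filter on low counts. Ccl5 passed it through other libraries, WT MoAr libraries among them, where it is high. These calls are therefore no support for a difference. With Saline the difference was -0.18 ± 0.58, and the test of the change in the genotype difference, the interaction, gave -1.96 ± 0.87 (edgeR adjusted p = 0.718). MoAr minus Saline in TrkA-C was -1.73 ± 0.67 (edgeR adjusted p = 0.828), and TrkA-C minus WT for the mean of both injections was -1.16 ± 0.44 (edgeR adjusted p = 0.107).

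Beside Ccl5, the T cell markers Cd3d, Cd3e and Cd3g were at no more than 0.255 CPM in all libraries, a level that Ccl5 itself shared in many of them. Other T cell markers overlapped between the genotypes with MoAr. Cd4 had 0.428 to 1.27 CPM in WT MoAr and 0.460 to 1.03 CPM in TrkA-C MoAr. In the same order, Lck had 1.21 to 2.55 and 1.40 to 1.70 CPM, Cd8a 0.159 to 0.548 and 0.173 to 0.445 CPM, and Cd2 0 to 0.286 and 0.0318 to 0.172 CPM. The 5 NK cell markers summed to 0.214 to 0.656 CPM in WT MoAr and 0.0492 to 0.676 CPM in TrkA-C MoAr. The part of these cells in the Ccl5 values was not tested.

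**Figure D4:**
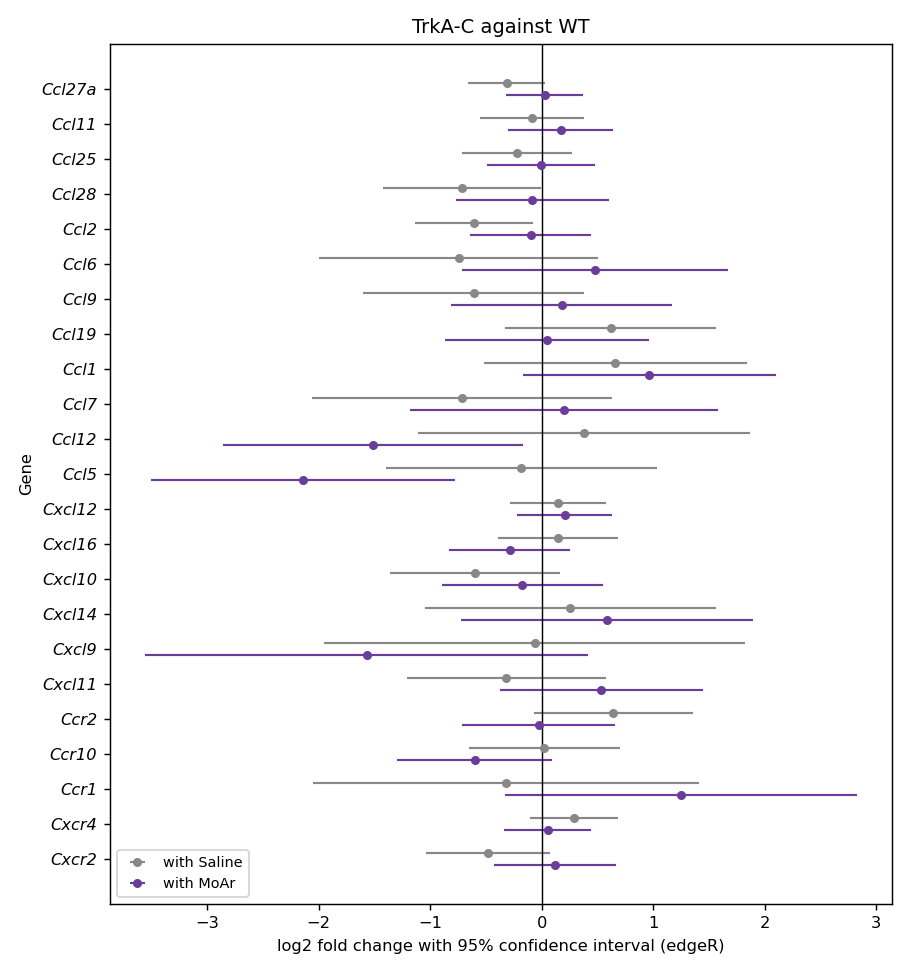
Log2 difference TrkA-C minus WT for the tested members that are reported here (rows), with Saline and with MoAr, with 95% confidence intervals from the edgeR fit of 16 libraries. With MoAr the interval for Ccl5 runs from -3.50 to -0.78 and that for Ccl12 from -2.86 to -0.17, and no member passed adjustment.

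Ccl6 and Ccl9 are myeloid ligands of Ccr1. Ccl6 stood at 0.884 to 1.86 CPM in WT Saline, 0.449 to 1.32 CPM in WT MoAr and 0.442 to 1.19 CPM in TrkA-C Saline. In TrkA-C MoAr it had 0.636, 0.374, 3.85 and 0.639 CPM, so a single library, TrkA-C MoAr 3, stood far above all others. Ccr1 had 1.61 CPM (62 counts) in that library and 0.0795 to 0.608 CPM in the other 15. Ccr3 had 13 of its 14 counts there. The same library had a summed level of 12 neutrophil markers of 295 CPM, against 4.67 to 33.8 CPM in the others. Its 6 erythroid and marrow markers, of which 4 had 0 counts in every library, summed to 11.4 CPM, against 0.321 to 1.61 CPM. The part of these cells in the values of that library was not tested. MoAr minus Saline in TrkA-C was 0.92 ± 0.58 for Ccl6 and 1.28 ± 0.75 for Ccr1 with all libraries, and -0.40 and -0.12 without TrkA-C MoAr 3. The interaction for Ccl6 was 1.22 ± 0.82 (edgeR adjusted p = 0.718) with all libraries and -0.11 without that library. Ccl9 had group means of 0.722 to 1.13 CPM, with TrkA-C MoAr 3 at 1.43 CPM and WT Saline 4 highest at 2.05 CPM.

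**Figure D5:**
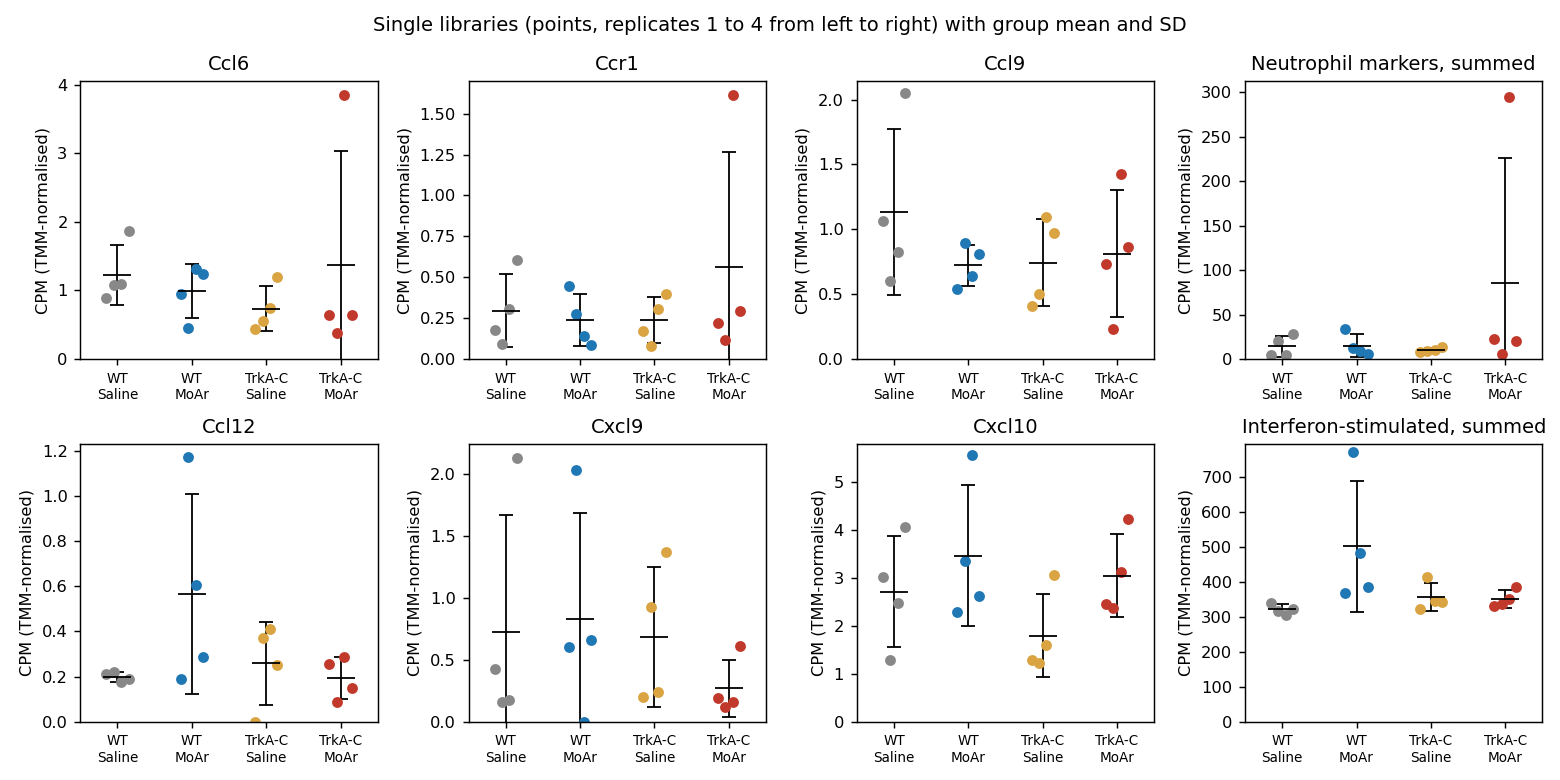
CPM per library (points, by group). Ccl6, Ccr1 and Ccl9 are shown beside the summed neutrophil markers. Ccl12, Cxcl9 and Cxcl10 are shown beside the summed interferon-stimulated genes. Ccl9 and Cxcl9 are highest in WT Saline 4, and Cxcl10 in WT MoAr 3. TrkA-C MoAr 3 is the highest for Ccl6, Ccr1 and the 12 neutrophil markers (295 CPM), and WT MoAr 2 is the highest for Ccl12 and the 23 interferon-stimulated genes (773 CPM).

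Cxcl9, Cxcl10 and Cxcl11 lie together on chromosome 5, between 92321331 and 92363296, are induced by interferons and share the receptor Cxcr3. Cxcl10 stood at 3.01, 1.30, 2.48 and 4.07 CPM in WT Saline and at 2.29, 3.35, 5.56 and 2.62 CPM in WT MoAr. In TrkA-C it had 1.29, 1.22, 1.60 and 3.06 CPM with Saline and 2.45, 2.36, 3.12 and 4.23 CPM with MoAr. Groups overlapped in both genotypes. MoAr minus Saline was 0.35 ± 0.35 in WT and 0.78 ± 0.36 in TrkA-C (95% interval 0.03 to 1.52, edgeR unadjusted p 0.0434 and adjusted p 0.87). For the mean of both genotypes it was 0.56 ± 0.25 (edgeR adjusted p = 0.723). Cxcl9 ran from 0 in WT MoAr 3 to 2.04 CPM in WT MoAr 2 and 2.13 CPM in WT Saline 4, and its group means were 0.269 to 0.826 CPM. Cxcl11, annotated by RefSeq as a transcribed pseudogene and overlapping the pseudogene Gm2673, had group means of 0.433 to 0.720 CPM. Of the 50-base words of Cxcl11, 40.4% also occur in other annotated genes, so its counts are uncertain. Its log2 difference MoAr minus Saline in WT was -0.73 ± 0.44 (edgeR adjusted p = 0.703).

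The 23 interferon-stimulated genes summed to 305 to 341 CPM in WT Saline, 323 to 415 CPM in TrkA-C Saline and 331 to 387 CPM in TrkA-C MoAr. In WT MoAr they summed to 368, 773, 484 and 385 CPM. The library at 773 CPM, WT MoAr 2, was the highest of all for Ccl12 and the second for Cxcl9 but was not the highest for Cxcl10, and WT MoAr 3 at 484 CPM was the highest for Cxcl10 and the second for Ccl12 with a Cxcl9 of 0. The part of interferon-stimulated transcription in these values was not tested. Cxcr3, the shared receptor, had 52 counts in all and was not tested.

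Ccl22, a ligand of Ccr4 made by dendritic cells and macrophages, lies on chromosome 8 from 94745684 to 94751388. It was left out of the tested set by the filter on low counts and was singled out after its values were seen. Its counts were 4, 14, 5 and 5 in WT Saline and 12, 13, 9 and 11 in WT MoAr. They were 6, 2, 3 and 5 in TrkA-C Saline and 4, 3, 1 and 2 in TrkA-C MoAr. With MoAr, WT had 0.317 to 0.449 CPM and TrkA-C 0.026 to 0.127 CPM, and the genotypes did not overlap, whereas with Saline they overlapped (0.141 to 0.443 and 0.053 to 0.204 CPM). When no filter was applied, edgeR tested 20227 genes and gave TrkA-C minus WT of -2.32 ± 0.62 with MoAr (adjusted p = 0.0547) and -1.60 ± 0.43 for the mean of both injections (adjusted p = 0.0275). In that fit 2.03% and 6.2% of tested genes were called. A fit of the MoAr libraries alone kept Ccl22 through the group where it is high and called it (-2.33 ± 0.55, adjusted p = 0.0343 with edgeR, 3.06% of genes called). DESeq2 gave -2.39 for genotype with MoAr, with an unadjusted p of 0.000663 and no adjusted p after its own filter. The genotype difference with Saline was -0.89 ± 0.60, and the interaction was -1.42 ± 0.86 (edgeR adjusted p = 0.772). Beside it, the 5 dendritic cell markers summed to 30.1 to 33.7 CPM in WT MoAr and 34.6 to 38.9 CPM in TrkA-C MoAr. Most of that sum was Flt3, at 20.1 to 25.5 CPM in WT MoAr and 25.6 to 31.0 CPM in TrkA-C MoAr, which was called higher in TrkA-C (0.33 ± 0.09, edgeR adjusted p = 0.0489). The other markers overlapped between the genotypes, with Zbtb46 at 7.03 to 8.11 CPM in WT MoAr and 7.17 to 9.12 CPM in TrkA-C MoAr. In the same order, Itgax had 0.350 to 1.43 and 0.0575 to 0.573 CPM, Clec9a 0.191 to 0.784 and 0 to 0.350 CPM, and Ccr7 0 to 0.144 and 0 to 0.0288 CPM. Their part in the result was not tested. Ccl17, the neighbouring gene and other Ccr4 ligand, had 38 counts, and Ccr4 had 16.

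None of the homeostatic ligands Ccl19, Ccl25, Ccl27a, Ccl28, Cxcl14 and Cxcl16 was called in any of the 7 comparisons with edgeR. Ccl27a, a skin and epithelial ligand of Ccr10, had group means of 8.90 ± 2.41 CPM (SD, n = 4) in WT Saline, 7.36 ± 1.15 in WT MoAr, 7.13 ± 0.17 in TrkA-C Saline and 7.52 ± 1.33 in TrkA-C MoAr. Its genotype difference with Saline was -0.32 ± 0.17 (95% interval -0.66 to 0.03, edgeR adjusted p = 0.256), and -0.12 without WT Saline 4, which stood at 12.3 CPM. That library also had the highest summed levels of the satellite glia markers (4996 CPM, the other 15 libraries 3033 to 3917 CPM) and the endothelial markers (138 CPM) of all 16, and their part in its values was not tested. Of the 50-base words of Ccl27a, 45.0% also occur in other annotated genes, Ccl27b among them, so its counts are uncertain. Ccl28, a mucosal ligand of Ccr10, stood at 2.23, 2.69, 1.48 and 1.22 CPM in WT Saline and at 0.917, 1.46, 0.853 and 1.41 CPM in TrkA-C Saline. These groups overlapped, and TrkA-C minus WT was -0.72 ± 0.34 with Saline (edgeR unadjusted p 0.0479, adjusted p 0.205) and -0.40 ± 0.23 for the mean (edgeR adjusted p = 0.31). Ccl25, the ligand of Ccr9, had group means of 1.75 to 2.05 CPM, and Ccl19, a Ccr7 ligand, 0.517 to 0.818 CPM. Of the 50-base words of Ccl19, 52.0% also occur in other annotated genes, so its counts are uncertain too. Cxcl16, a membrane-bound ligand of Cxcr6, had means of 2.33 to 3.24 CPM, and MoAr minus Saline in TrkA-C was -0.48 ± 0.26 (edgeR adjusted p = 0.887). Cxcl14 had means of 0.530 to 0.822 CPM. Cxcl16 overlaps Zmynd15 over 552 bases, Ccl25 overlaps Elavl1 over 204 and Cxcl10 overlaps Art3 over 133, and the strand setting of the counting is not given in the sources used here, so reads of the partners cannot be separated.

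Among the receptors, Cxcr2, the neutrophil receptor of Cxcl1, Cxcl2 and Cxcl5, had group means of 4.35 to 6.09 CPM. WT Saline 4 stood at 11.4 CPM, and the other 15 libraries at 3.64 to 6.84 CPM. The interaction for Cxcr2 was 0.60 ± 0.37 (edgeR adjusted p = 0.718), and 0.11 without WT Saline 4. In TrkA-C MoAr 3, where the neutrophil markers summed to 295 CPM, Cxcr2 was 6.84 CPM. Its ligands were scarce: Cxcl5 had 41 counts, Cxcl1 17 and Cxcl2 1 over all 16 libraries, and Cxcl3 had 0. Ccr2, the monocyte receptor of Ccl2, had 0.990, 1.30, 1.31 and 2.51 CPM in WT Saline and 1.12, 2.44, 2.35 and 3.60 CPM in TrkA-C Saline. The groups overlapped, and the genotype difference was 0.64 ± 0.34 (edgeR adjusted p = 0.258), and 0.38 without TrkA-C Saline 4. Ccr10 stood at 0.668, 0.794, 0.784 and 1.10 CPM in WT MoAr and at 0.541, 0.547, 0.572 and 0.541 CPM in TrkA-C MoAr, which did not overlap. Genotype with MoAr gave -0.60 ± 0.33 (edgeR adjusted p = 0.496). Ccl5 and Ccr10 were the 2 tested members that did not overlap there, where 8.13% of all tested genes did not. For Ccr10, MoAr minus Saline was -0.76 ± 0.33 in TrkA-C (edgeR unadjusted p 0.0326, adjusted p 0.869) and -0.44 ± 0.23 for the mean of both genotypes (edgeR adjusted p = 0.815), with TrkA-C Saline 4 at 0.360 CPM below its group's other libraries at 1.05 to 1.16 CPM.

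The remaining 21 members with a count were not tested. Ccl22 had 99 counts, Ccl8 55, Cxcr3 52, Ccl24 and Cxcl5 41 each, Ccl17 38, Cxcr6 34, Ccr9 33, Ccl3 28 and Ccr7 26. The others had 1 to 17 counts over all 16 libraries: Cxcl1, Ccr4, Ccr3, Cxcr5, Cxcl13, Ccl4, Ccr1l1, Ccl20, Cxcl15, Cxcl2 and Cxcr1. Ccl3 was singled out after its values were seen and had at most 6 counts in a library. In WT it had 0.0707 to 0.218 CPM with Saline and 0 to 0.0345 CPM with MoAr. In TrkA-C it had 0.0340 to 0.133 and 0 to 0.0246 CPM, so the groups of neither genotype overlapped. Without the filter, edgeR gave MoAr minus Saline of -3.72 ± 1.09 in WT and -2.78 ± 1.11 in TrkA-C. For the mean it gave -3.25 ± 0.78 (edgeR adjusted p = 0.201, 0.00989% of genes called). The 9 members at 0 were Ccl21a, Ccl21b, Ccl21c, Ccl26, Ccl27b, Ccr6, Ccr8, Cxcl17 and Cxcl3. Of the transcripts of Ccl21a, Ccl21b and Ccl27b, 71.6%, 100% and 98.1% of the 50-base words occur in other genes, so their zeros are uncertain, as is that of Ccl21c, which was not matched to the transcript set.

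Other genes of the pathway were taken from lists. Of 12 chemokine system genes outside the symbol rule, 9 were tested and 0 called by edgeR in any comparison. The most abundant was Ackr1, the vascular chemokine-binding receptor, at group means of 87.3 to 100.3 CPM, followed by Cx3cl1, a neuronal ligand, at 8.23 to 10.0 CPM. Its receptor Cx3cr1, on macrophages, had 4.39 ± 0.786 CPM (SD, n = 4) in WT MoAr and 2.76 ± 0.371 CPM in TrkA-C MoAr. Its genotype difference did not pass the adjusted threshold. Of 38 receptor signalling genes in the table, 37 were tested. Vav3, a guanine exchange factor for Rac, rose in TrkA-C by a log2 difference of 0.40 ± 0.10 with Saline (edgeR adjusted p = 0.0252) and by 0.42 ± 0.09 with MoAr (adjusted p = 0.0195), and 1 other, Prkcd, rose with Saline. For the mean of both injections 5 rose (Grk2, Plcb3, Prkcd, Tiam1 and Vav3) and 1 fell (Rap1b), and 0 were called for MoAr or the interaction. Of 19 genes of the NF-kB pathway 14 were tested: Nfkbib fell in TrkA-C with Saline (-0.24 ± 0.06, edgeR adjusted p = 0.044), Irf5 rose for the mean (0.37 ± 0.10, edgeR adjusted p = 0.0224), and 0 were called for MoAr. Over all tested genes edgeR called 4.34% for genotype with Saline, 2.84% with MoAr and 8.96% for the mean of both injections, so these counts are given as a description and show nothing particular to either list.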

How the data were processed

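RNA was measured in 16 poly-A libraries of mouse dorsal root ganglia, 4 per group, grouped by sample title. The authors deposited raw read counts per gene. The submitters' processing notes name HTSeq 0.6.1p1, TopHat2 2.1.1, SAMtools 1.5, Bowtie2 2.3.5.1, FastQC, bcl2fastq 2.20 and build mm10, while annotation, strand mode and settings are not given in the sources used here. CPM are a gene's counts as a share of the library total, scaled to 1e6 with TMM factors. Tests used edgeR 4.0.16 (R 4.3.3): quasi-likelihood, a mean for each group, all 16 libraries, 15507 genes left by filterByExpr, common biological coefficient of variation 11.8%. The threshold was a Benjamini-Hochberg adjusted p under 0.05 across all of those genes. The script was tested on simulated data. Log2 differences carry their SE.

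The members and lists were chosen with earlier results of these data known. The text names called members and the 4 with the smallest p in each comparison; the other tested members are given by levels, except that 1 member and 1 marker are not reported here. Alternatives were RLE size factors, DESeq2 1.42.0, limma-voom (limma 3.58.1), other filters and dispersions, covariates, the replicate block and leaving out libraries. Limma-voom was run with sample quality weights, which give each library its own weight. Levels of different genes were compared per kilobase of GENCODE exon, with the exons of all annotated transcripts of a gene merged.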

Additional observations from a re-analysis of the deposited data

Results flagged for a closer look

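For 25 members (the 24 tested and Ccl22), the library farthest from the other 3 of its group was compared with Dixon's limit for 4 values. Of 100 groups checked, 12 held such a library, where chance gives about 5%, or about 1 in 20 groups. That rate is for independent, normally distributed values, whereas these are CPM of partly low counts from the same 16 libraries. The flags are therefore a description and no test of an excess. WT Saline 4 stood apart for Cxcr2 (11.4 CPM, others 4.11 to 4.66) and for Cxcl9 (2.13 CPM, others 0.158 to 0.424). That library was the highest of all 16 for 8 of the 24 tested members, among them Ccl25, Ccl27a, Ccl5, Ccl9, Cxcl11, Cxcl9 and Cxcr2. The share over all tested genes was not computed, so this count shows nothing particular to the members. WT Saline 4 also had the highest summed markers of satellite glia (4996 CPM), endothelium (138 CPM) and lymphatic endothelium (41.3 CPM) and the lowest Ntrk3 (29.3 CPM) of the 16 libraries. Their part in these values was not tested. TrkA-C MoAr 3 stood apart for Ccl6 (3.85 CPM, others 0.374 to 0.639) and for Ccr1 (1.61 CPM, others 0.115 to 0.295), beside the neutrophil markers given above.

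TrkA-C MoAr 1 stood apart for Ccl11 (5.76 CPM, others 3.51 to 3.84) and for Ccl7 (0.955 CPM, others 0.123 to 0.259), 2 neighbouring genes of the chromosome 11 cluster. TrkA-C Saline 4 was high for Ccl11 (7.17 CPM, others 4.48 to 4.91) and low for Ccr10 (0.360 CPM, others 1.05 to 1.16). TrkA-C MoAr 4 was high for Ccl28 (2.78 CPM, others 1.34 to 1.53) and Cxcl9 (0.615 CPM, others 0.115 to 0.191). WT MoAr 4 was high for Ccl27a (9.05 CPM, others 6.52 to 6.94), and WT MoAr 3 was low for Ccl5 (0.178 CPM, others 0.382 to 0.414).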

How the results depend on the processing

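Few counts in the scarcer members and 4 libraries a group limit these results. The count of members called stayed 0 for MoAr in WT, in TrkA-C and for the mean, for genotype with Saline and for the interaction, under every alternative run. For genotype with MoAr it was 0 with all libraries and 1 with limma-voom (Ccl5), 1 with only the groups compared (Ccl22) and 1 at an adjusted p under 0.10 (Ccl5), and 0 to 2 when a library was left out. For genotype over both injections it was 1 without a filter on low counts (Ccl22), and 0 to 1 when a library was left out. Ccl22 entered 14 of the 16 fits without a library and was called in 10 for genotype with MoAr (log2 difference -2.70 to -2.05, edgeR adjusted p 0.0198 to 0.101) and in 14 for the mean of both injections (-1.81 to -1.48, adjusted p 0.0112 to 0.0312). The calls with MoAr were lost without WT MoAr 2, TrkA-C MoAr 2, TrkA-C MoAr 3 or TrkA-C MoAr 4. Without WT Saline 2 or WT MoAr 1 it did not pass the filter. Where it passed, it did so through the WT libraries, where it is high, so these calls are no support for a difference. The Ccl5 calls for genotype with MoAr are no support either, as no TrkA-C MoAr library helped Ccl5 pass the filter.

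Among the named log2 differences, 16 values in 8 results changed sign. Without both WT MoAr 2 and TrkA-C MoAr 3, Ccl6 became -0.34 for the interaction, -0.40 for MoAr in TrkA-C and -1.08 for genotype with MoAr, and Ccr1 became -0.12 and -0.070 for the last 2. With single libraries left out, the range for Ccl6 was -0.11 to 1.55 for the interaction, -0.40 to 1.24 for MoAr in TrkA-C and -0.84 to 0.79 for genotype with MoAr. For Ccr1 it was -0.12 to 1.63 for MoAr in TrkA-C and -0.15 to 1.75 for genotype with MoAr. The lowest values of both genes came without TrkA-C MoAr 3. For MoAr in WT it was -0.15 to 0.25 for Cxcl12 and -0.029 to 0.28 for Cxcr4, and for genotype with MoAr -0.15 to 0.17 for Cxcr4. The cause of the sign changes was not tested.

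With the replicate block (the title's number as a factor) 0 members were called in each comparison, with a smallest adjusted p of 0.0922 for genotype with MoAr. Same-numbered libraries did not deviate together: the correlation of their deviations was -0.21 to 0.13 over 24 pairs, with 3 above 0.1, and in 5 of the pairs the libraries correlated best with their own number.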
